A study of Sus scrofa with 8 samples.

Results

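The cells described here were LUM+ OGN- cells of the pig somite and myotome, single cells with RNA of lumican (LUM) and type I collagen (COL1A2) but none of osteoglycin (OGN). They were chosen from measured counts: at least 1 unique molecular identifier (UMI, 1 captured RNA molecule) of LUM, at least 3 of COL1A2, and 0 of OGN, TNMD, MATN4, ACAN and ZIC4. Barcodes also needed at least 200 detected genes, at most 30000 UMIs and at most 10% of UMIs on 13 mitochondrial genes. The rule found 6496 cells among the 82394 barcodes that passed these limits, out of 90688 deposited.

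Cells were captured by droplet single-cell RNA sequencing (10x Genomics, 3′ ends) from Tibetan pig (ZZ) and Duroc x Tibetan (DZ) embryos at embryonic day (E) 16, E18, E21 and E28. Somites were dissected at E16, E18 and E21, and myotome at E28, so that stage and tissue cannot be told apart between E21 and E28. Each of the 8 libraries, named by stage and breed (E16-ZZ and so on), came from 5 pooled embryos of 1 sow, with 1 library for each stage and breed. Where values are listed without library names, the order is by stage, with ZZ before DZ at each stage. Breed, sow and library therefore cannot be told apart within a stage, and p-values measure the spread between single libraries.

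Lumican, decorin and osteoglycin are small leucine-rich proteoglycans that bind collagen fibrils, and connective tissue cells start to make them as they lay down matrix. In the trunk, the dorsal part of the somite (the dermomyotome) gives rise to dermis and skeletal muscle, and cells there that express the homeobox gene EN1 include progenitors of dorsal dermal fibroblasts. PRRX1 encodes a homeobox factor of limb and lateral mesenchyme, and DKK2 a secreted modulator of WNT signalling found in dermal mesenchyme. In Sscrofa11.1, RefSeq places LUM on chromosome 5 (91748871 to 91756381) beside the proteoglycan gene DCN (91678601 to 91713925), OGN on chromosome 3 (42116521 to 42135940), and EN1 on chromosome 15 (24402605 to 24408377).

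The LUM+ OGN- cells made up 14.5% of kept barcodes in E16-ZZ (913 cells, exact 95% binomial interval 13.6 to 15.4%), 2.72% in E16-DZ (288 cells), 4.07% in E18-ZZ (419 cells) and 5.66% in E18-DZ (586 cells). At E21 they made up 8.38% (ZZ, 973 cells) and 12.8% (DZ, 1307 cells), and at E28 11.2% (ZZ, 1215 cells) and 6.53% (DZ, 795 cells). The highest and the lowest share were both at E16, so the early and late libraries overlapped. The mean share was 9.73% ± 2.81 (SD, n = 4) at E21 and E28 and 6.74% ± 5.31 (SD, n = 4) at E16 and E18, a difference of 2.99 percentage points (exact two-sided permutation test over 70 assignments, p = 0.343, where the smallest possible p is 0.0286). The difference was 0.71 percentage points at a mitochondrial limit of 5% (exact permutation p = 0.886), 12.7 when OGN was not used in the rule (exact permutation p = 0.0571), and -0.039 among members with no UMI of 6 skeletal muscle genes, described below.

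Intervals cover counting error only. OGN divided the LUM+ cells differently by stage: 89.8 to 94.8% of cells with LUM and COL1A2 lacked OGN at E16 and E18, against 76.8% and 78.1% in E21-ZZ and E21-DZ and 36.7% and 29.2% in E28-ZZ and E28-DZ. LUM+ OGN+ cells, which met the same rule but for an OGN UMI, rose from 17 to 104 cells per library at E16 and E18 to 2096 and 1927 at E28. At E28 the LUM+ OGN- cells were thus the smaller share of the LUM+ cells.

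**Figure D1:**
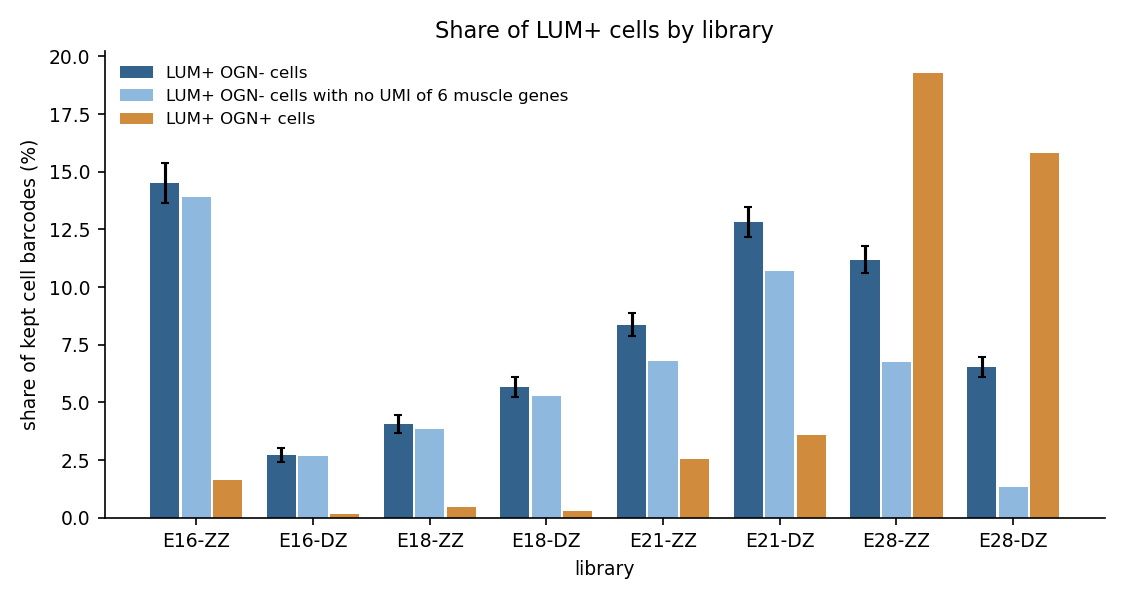
Share of kept barcodes (y axis, %) in each of the 8 libraries (x axis) for LUM+ OGN- cells (dark blue, with exact 95% binomial intervals), LUM+ OGN- cells with no UMI of 6 skeletal muscle genes (light blue) and LUM+ OGN+ cells (orange). LUM+ OGN- cells range from 2.72% to 14.5% with no order by stage, and LUM+ OGN+ cells outnumber them in both E28 libraries.

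Members lay close to the thresholds of the rule. Of all members, 1742 (26.8%) had exactly 1 UMI of LUM, and 876 had exactly 3 UMIs of COL1A2. Just outside stood 9593 cells with no LUM UMI, 860 with 2 UMIs of COL1A2 and 1448 with 1 UMI of OGN. Median depth per member was 7001 to 9176 UMIs at E16 and E18 and 3877 to 4935 at E21 and E28, and the UMIs summed over members of a library ranged from 2416387 to 9283820. Pairs of libraries shared 17 to 48 kept barcodes and at most 2 members.

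Free RNA can give a LUM UMI to a cell that does not express the gene. LUM was seen in 15 of 81 endothelial cells (18.5%) of E21-ZZ and 32 of 68 (47.1%) of E28-ZZ, at median depths of 9498 and 12833 UMIs. The whole rule passed 3.70% and 0% of these endothelial cells. Over endothelial, neuronal and glial cells in all libraries it passed at most 5.00%. The rule also needs COL1A2 and no OGN, so a low pass rate does not measure how much free LUM RNA reached the members.

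The share of members with skeletal muscle transcripts differed widely between libraries. At least 1 UMI of MYOD1, MYOG, MYF5, PAX7, MYMK or CDH15, genes of muscle progenitors and differentiating myoblasts, was found in 3.94%, 1.74%, 5.25% and 6.48% of members in E16-ZZ, E16-DZ, E18-ZZ and E18-DZ. The share was 18.7% and 16.6% at E21 and, at E28, 39.5% in ZZ and 79.7% in DZ. In LUM+ OGN+ cells of E28-ZZ and E28-DZ the shares were 17.8% and 23.9%, and in all kept barcodes 22.0% and 30.5%. In E28-DZ, 71.7% of the LUM+ OGN- cells held UMIs of 2 or more of the 6 genes. Muscle transcripts were also common in LUM-negative cells that otherwise met the rule. In E28-DZ, 153 of 850 such cells had no muscle UMI, beside 161 of 795 members. In E28-ZZ, 117 of 412 had none, beside 735 of 1215 members.

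Taken from the other side, among cells with 2 or more of the 6 muscle genes at E28, LUM was seen in 58.0% (E28-ZZ, median 5346 UMIs) and 47.3% (E28-DZ, median 4844 UMIs), and the whole rule passed 24.1% and 21.0%. After thinning every cell to 2000 UMIs the rule still passed 13.6% and 11.4% of them. It passed none of 34 endothelial, 13 neuronal and 42 glial cells in E28-ZZ and none of 33, 76 and 56 in E28-DZ. LUM itself was seen in 20.6%, 15.4% and 9.52% of these cells in E28-ZZ and 3.03%, 2.63% and 5.36% in E28-DZ. In the muscle cells it was seen in 33.4% and 27.3%. The rule also needs COL1A2 and no OGN, so these pass rates do not measure free LUM RNA. Barcodes treated as doublets, a fixed quota per library with the highest Scrublet scores, were 4.86% and 3.77% of the members in E28-ZZ and E28-DZ. Removing them left 9924 of 10869 kept barcodes in E28-ZZ and 10988 of 12173 in E28-DZ. Among members, 1156 of 1215 and 765 of 795 were left. Whether members with muscle UMIs were single cells with both programmes was not tested. Results are therefore given for all members and for those with no UMI of the 6 genes (muscle-negative members), of which there were 877, 283, 397 and 548 at E16 and E18, 791 and 1090 at E21, 735 in E28-ZZ and 161 in E28-DZ.

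**Figure D2:**
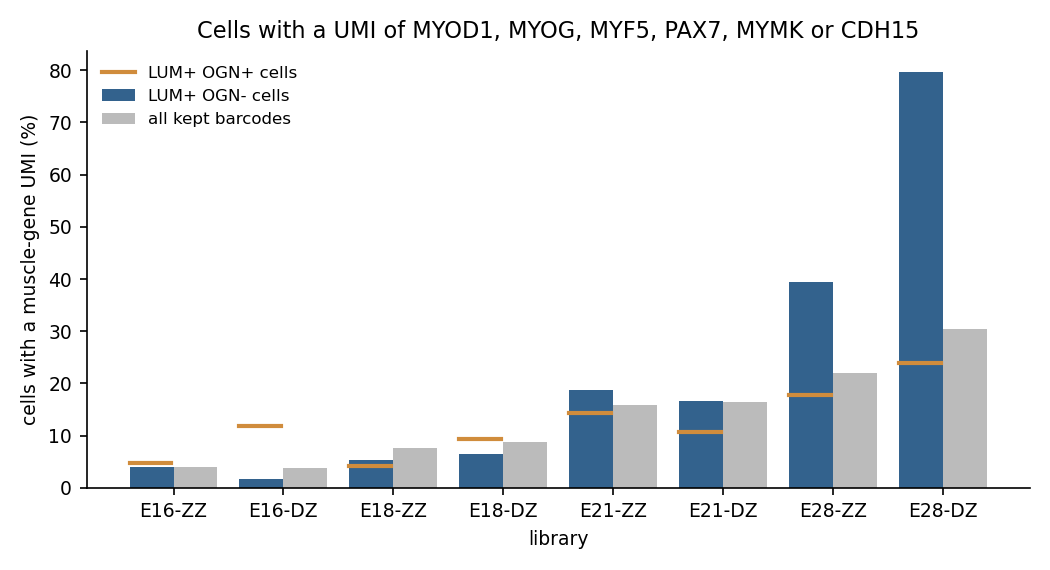
Percent of cells (y axis) with a UMI of at least 1 of 6 skeletal muscle genes in each library (x axis), for LUM+ OGN- cells (blue bars), all kept barcodes (grey bars) and LUM+ OGN+ cells (orange lines). The blue bar stands at 79.7% in E28-DZ and 39.5% in E28-ZZ, above both other values, while at E16 and E18 it does not pass 6.48%.

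The label under which these cells were proposed, fibroblasts with EN1, PRRX1 and DKK2, was met in part at E21 and E28. Members there also held muscle markers, and a minority had an EN1 UMI. The label was not met at E16 and E18, where few or no members had an EN1 UMI. The 6 fibroblast markers summed to 1607 CPM (here on unscaled library totals) in E28-DZ members, the lowest of all libraries and below the 3095 CPM of all kept barcodes there, and 36.2% of those members held 3 or more of the 6. The same markers summed to 2667 to 3210 CPM in the other later libraries (3210 in E28-ZZ, below the 3430 of all its kept barcodes) and to 3052 to 7611 CPM in the early ones. The 8 skeletal muscle markers summed to 6985 CPM in E28-DZ and 2047 CPM in E28-ZZ members, against 3756 and 1663 CPM in all kept barcodes. They summed to 1166 and 540 CPM in E21-ZZ and E21-DZ members, against 1092 and 962 CPM in all kept barcodes. A UMI of EN1 was present in 21.5% and 14.7% of members in E21-ZZ and E21-DZ and in 32.4% and 25.5% in E28-ZZ and E28-DZ. It was present in 0 of 913 members of E16-ZZ, a count of 0 that leaves room for at most 0.329% of cells with a UMI (cells that express EN1 without a captured UMI are not limited by this), in 0.347% in E16-DZ, in 0.955% in E18-ZZ, and in 0 of 586 in E18-DZ, where the limit is 0.512%. No EN1 level of the early libraries reached that of a later one.

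In CPM (the UMIs of a gene summed over members, relative to the TMM-scaled total of the library), EN1 stood at 0, 0.467, 1.27 and 0 in E16-ZZ, E16-DZ, E18-ZZ and E18-DZ, and at 64.8, 39.0, 114 and 78.1 at E21 and E28. PRRX1 stood at 22.4, 27.1, 63.5 and 60.3 CPM in the early libraries and at 107, 144, 150 and 35.9 CPM in the later ones, where E28-DZ fell between the E16 and E18 values. DKK2 stood at 5.07, 12.6, 8.67 and 34.6 CPM early and at 56.6, 48.0, 213 and 67.7 CPM late, with no overlap. In the muscle-negative members of E28-ZZ and E28-DZ, DKK2 reached 356 and 318 CPM and PRRX1 254 and 155.4 CPM.

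The early members carried fibrillar collagen together with simple-epithelial keratins. KRT8, which encodes a keratin of simple epithelia, stood at 9956, 7690, 5714 and 7676 CPM in E16-ZZ, E16-DZ, E18-ZZ and E18-DZ, at 212 and 156 CPM in E21-ZZ and E21-DZ, and at 12.5 and 0.744 CPM in E28-ZZ and E28-DZ. All kept barcodes of the early libraries also held such RNA, at lower levels. The 5 epithelial markers summed to 11873 and 9013 CPM in members of E16-ZZ and E16-DZ and to 6897 and 5461 CPM in all kept barcodes, and to 8122 and 10235 against 2374 and 1929 CPM at E18 (unscaled totals). The KRT8 partner KRT18 went from 2376 to 4636 CPM early to 63.6 and 24.4 CPM at E21 and 2.30 and 0.496 CPM at E28. The epithelial adhesion genes EPCAM (1.77 to 9.81 CPM) and CDH1 (0.255 to 2.80 CPM) were low in the same early cells. The tight junction gene CLDN6 lay between 87.7 and 110 CPM. The cell junction genes DSP and DSC2 lay at 220 to 295 and 57.0 to 76.8 CPM early, and at no more than 26.2 and 7.38 CPM later. Another keratin gene, KRT14, lay at 807 to 1710 CPM early and 10.9 to 41.4 CPM later.

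Transcription factors of lateral and extraembryonic mesoderm were higher in the early members than in the later ones. HAND1 stood at 382, 541, 463 and 645 CPM in the 4 early libraries, at 5.74 and 5.61 CPM at E21, and at 0 in both E28 libraries. GATA6 stood at 69.3 to 113 CPM early, 5.33 and 9.49 CPM at E21 and 0 at E28, and GATA4 at 29.8 to 61.1 CPM early and no more than 0.863 CPM later. APOE, a lipid carrier, stood at 1624 to 4522 CPM early and 8.82 to 59.0 CPM later. In LUM-negative cells of the same early libraries that otherwise met the rule, HAND1 stood at 181, 300.2, 75.0 and 65.9 CPM and GATA6 at 76.0, 76.2, 31.6 and 31.5 CPM, lower than in members of each library. GATA4 stood at 25.5 to 77.8 CPM there, above the members at E16, so it did not set LUM+ OGN- cells apart. These genes, chosen after their values were seen, are given as a description with no test.

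Collagens were shared across all stages. COL3A1, which encodes type III collagen, lay between 2075 and 4148 CPM early and at 1675, 1796, 1615 and 621 CPM at E21 and E28. COL1A1 lay between 904 and 2781 CPM early and at 281, 322, 695 and 274 CPM later. DCN, the proteoglycan decorin, overlapped between early (192 to 693 CPM) and later libraries (376 to 641 CPM). Members of every library are therefore called LUM+ OGN- cells here and not fibroblasts.

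**Figure D3:**
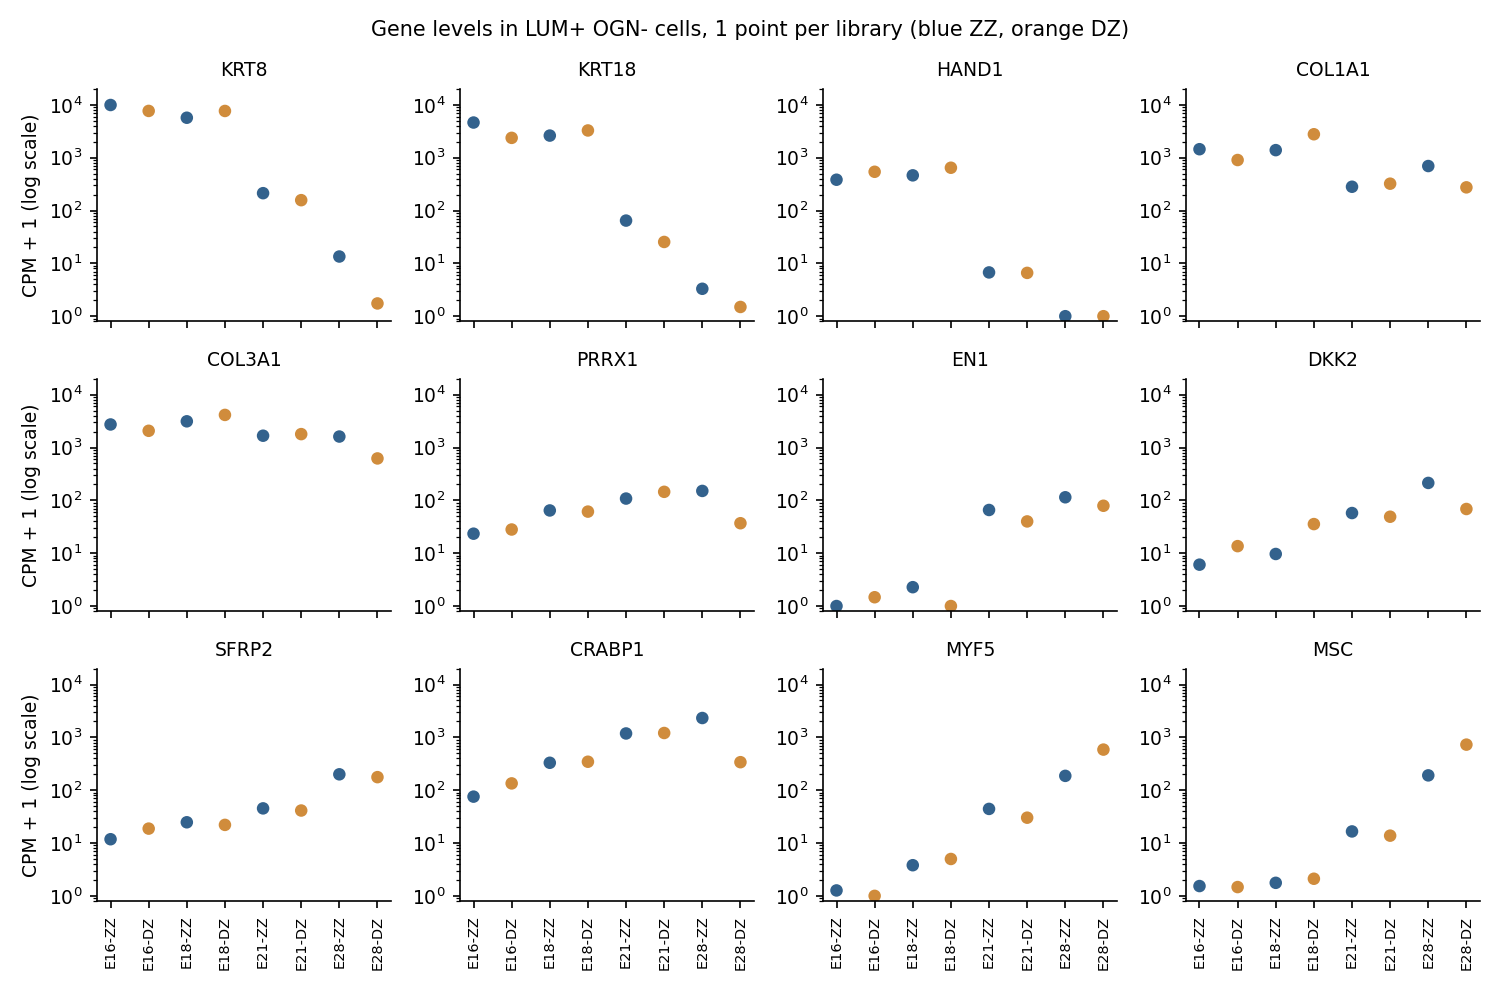
Level of 12 genes (y axis, CPM + 1, log scale) in LUM+ OGN- cells of each library (x axis), 1 point per library, blue for ZZ and orange for DZ. KRT8, KRT18 and HAND1 are high in the 4 early libraries and fall by E28, EN1 is near 0 until E21, and MYF5 and MSC are highest in E28-DZ.

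Between E21 and E28, the genes that rose over all members included skeletal muscle genes, and those that fell included KRT8, KRT18, 3 neuronal markers and PAX1. edgeR's quasi-likelihood test with Benjamini-Hochberg adjustment called 390 of 11696 genes (3.33%), 200 higher at E28 (1.71%) and 190 lower (1.62%). The count fell to 113 without the E21-ZZ library and to 51 without E21-DZ, and it was 896 without E28-ZZ. The 10 called genes with the largest rise were MSC, FGFR4, NRK, VGLL3, SPARCL1, MYOD1, PARM1, LFNG, MYF5 and INKA2. MSC encodes musculin, a factor of myogenic progenitors, and MYOD1 and MYF5 encode the myogenic determination factors.

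MSC stood at 15.6 and 12.8 CPM in E21-ZZ and E21-DZ and at 190.0 and 728 CPM in E28-ZZ and E28-DZ, a log2 fold change of 5.02 ± 0.55 (SE, edgeR adjusted p = 0.00356). MYF5 stood at 43.3 and 29.2 CPM at E21 and at 186 and 586 CPM at E28 (3.42 ± 0.46 on the log2 scale, edgeR adjusted p = 0.00576). Both genes were higher in E28-DZ than in E28-ZZ, as was the share of members with a muscle UMI. Of the 8 skeletal muscle markers, all tested, 5 rose and none fell, where 1.71% of all genes rose, with a median log2 fold change of 2.38 against 0.01 over all genes; the 6 genes that define muscle-negative members are on this list.

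Muscle-negative members were chosen by 6 muscle genes, MYOD1 and MYF5 among them. Those 6 genes have no UMI there by construction, and the loss of their calls is a description. Other muscle genes were not excluded: the 2 skeletal muscle markers still tested had a median log2 fold change of 1.80 in muscle-negative members, without a call. Of the 10 risen genes 7 could be tested there, and 1 of them rose, VGLL3, a transcription cofactor (2.33 ± 0.45 on the log2 scale, edgeR adjusted p = 0.0198). MSC stood at 2.89 and 1.07 CPM at E21 and at 4.29 and 19.8 CPM at E28 in these cells (edgeR adjusted p = 0.136). PARM1 stood at 3.68 and 4.45 CPM at E21 and 5.72 and 7.62 CPM at E28, against 133.3 and 193 CPM at E28 over all members. Without the E28-DZ library, all 10 still rose over all members.

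The 10 called genes with the largest fall were KRT18, KRT8, PAX1, INA, PLVAP, TUBB3, TBX3, TTYH1, BAMBI and CCSER1, and 8 of them also fell in muscle-negative members. KRT8 fell by 4.71 ± 0.61 on the log2 scale (edgeR adjusted p = 0.00552) in all members and by 4.73 ± 0.39 (edgeR adjusted p = 0.000342) in muscle-negative ones. PAX1, a factor of the sclerotome, stood at 60.5 and 19.6 CPM at E21 and at 3.65 and 0.992 CPM at E28 and fell by 4.01 ± 0.64 on the log2 scale. TBX3, a T-box factor of limb and flank mesenchyme, stood at 87.0 and 87.1 CPM at E21 and 14.6 and 9.67 CPM at E28.

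INA and TUBB3, which encode neuronal cytoskeleton proteins, fell along with ELAVL4, so that 3 of the 5 neuronal markers fell, where 1.62% of all genes did. STMN2, another of the 5, was not called. It stood at 771 and 430 CPM in E21-ZZ and E21-DZ and at 525 and 323 CPM in E28-ZZ and E28-DZ, with overlap between the stages. Of the 5, 2 fell without E28-DZ and 0 passed in a fit of the E21 and E28 libraries alone. The summed level of those 5 neuronal markers was 1067 and 541 CPM in E21-ZZ and E21-DZ members and 532 and 375 in E28-ZZ and E28-DZ members, against 3254 and 1180 and 475 and 1042 in all kept barcodes. Their part in the result was not tested. PLVAP encodes a diaphragm protein of endothelium, whose 6 defining markers had a median log2 fold change of -1.67 with no called gene.

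Genes that rose in muscle-negative members included matrix genes and a few WNT pathway genes. In these cells 350 of 11352 genes were called (3.08%), 224 higher at E28 (1.97%) and 126 lower (1.11%), and the count fell to 111 without E21-ZZ and to 79 without E21-DZ. Both versions called 127 genes, 32.6% of the calls over all members and 36.3% of those in muscle-negative members, which are part of the same cells. By the same naming rule the 10 that rose most were ALDH1A1, NXPH2, SFRP2, PENK, CAVIN1, ENPP6, FBLN5, GXYLT2, PID1 and DKK2. This version was added after the data were seen, and 7 of these 10 also rose over all members.

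SFRP2, a secreted WNT antagonist of mesenchyme, stood at 46.8 and 42.4 CPM in muscle-negative members of E21-ZZ and E21-DZ and at 320 and 771 CPM in those of E28-ZZ and E28-DZ (3.63 ± 0.37 on the log2 scale, edgeR adjusted p = 0.000885). Over all members it stood at 44.3, 40.3, 199 and 176 CPM and rose by 2.15 ± 0.21 (edgeR adjusted p = 0.00281). DKK2 rose by 2.93 ± 0.46 in muscle-negative members (edgeR adjusted p = 0.00809), against 1.43 ± 0.59 over all members (edgeR adjusted p = 0.243). EN1 rose by 1.48 ± 0.34 (edgeR adjusted p = 0.0385) in muscle-negative members, from 55.2 and 33.9 CPM to 130 and 108 CPM, and did not pass over all members. Neither DKK2 nor EN1 passed in muscle-negative members when E21-ZZ or E21-DZ was left out.

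**Figure D4:**
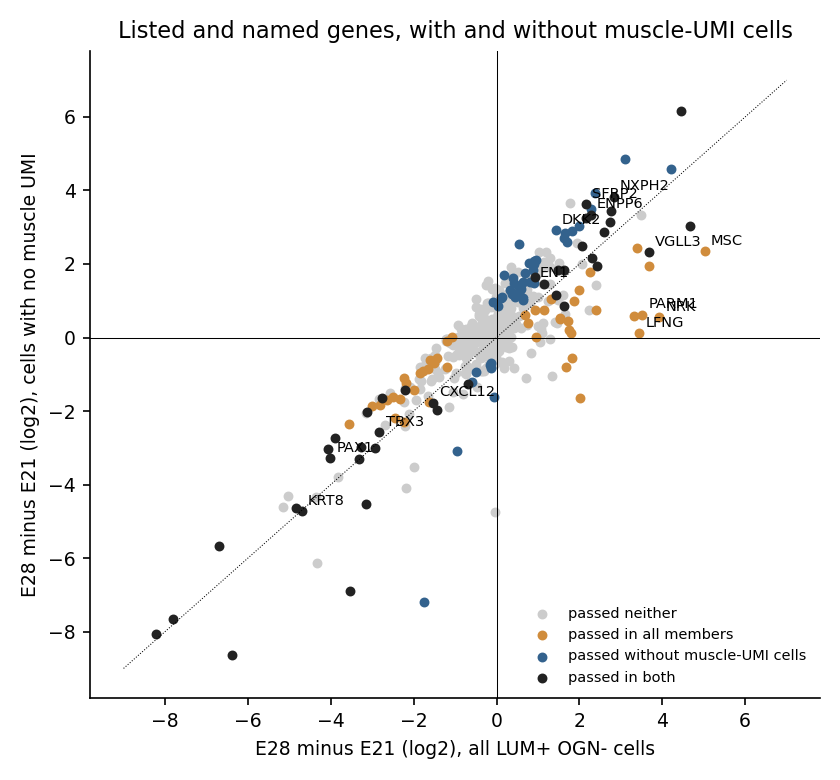
Log2 fold change from E21 to E28 of the listed and named genes in all LUM+ OGN- cells (x axis) and in those with no UMI of 6 skeletal muscle genes (y axis), coloured by which edgeR test was passed. MSC, PARM1, NRK and LFNG lie at 3.44 or more on the x axis without passing on the y axis, DKK2 and EN1 passed on the y axis alone, and KRT8, PAX1 and TBX3 lie near the dotted line of equality.

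Among WNT pathway genes, 2 of 10 antagonists rose in muscle-negative members (DKK2 and SFRP2), 1 of 8 tested ligands (WNT11) and 2 of 12 tested receptors and agonists (LGR4 and RSPO3), and none of 6 tested targets passed, where 1.97% of all genes rose. The 5 became 3 (SFRP2, WNT11 and RSPO3) without E21-ZZ or without E21-DZ. Of the targets NKD1 and LEF1 fell without E28-ZZ, and APCDD1 and SP5 rose without E28-DZ. RSPO3, a secreted agonist of WNT signalling, stood at 25.5 and 20.7 CPM at E21 and 190 and 142 CPM at E28 (2.90 ± 0.21 on the log2 scale, edgeR adjusted p = 0.000253). AXIN2, a common WNT target, stood at 29.2 and 26.6 CPM at E21 and at 45.1 and 7.62 CPM at E28. Over all members, SFRP2 and FZD4 rose, FZD3 fell, and no ligand or target passed. The median log2 fold change there was -0.48 for tested ligands and -0.11 for tested antagonists. Without E28-DZ these medians were 0.31 and 0.53.

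Several matrix genes rose in muscle-negative members. Of 24 tested matrix glycoproteins and elastic fibre genes 11 rose and none fell (median log2 fold change 1.00, against -0.02 over all genes), of 14 fibrillar and network collagens 3 rose, and of 19 collagen-processing genes 4 rose, where 1.97% of all genes did. The 11 became 2 (SPARC and FBLN5) without E21-ZZ or without E21-DZ, 6 without E28-ZZ and 10 without E28-DZ, while the median of the 24 lay between 0.82 and 1.00. Without E21-ZZ the collagens gave 1 call (COL6A1), and without E21-DZ they gave 0 and the processing genes 1 (P4HA3), so that COL1A1 passed in neither. SPARC, a collagen-binding glycoprotein, stood at 170 and 114 CPM at E21 and at 380 and 376 CPM at E28. COL1A1 stood at 305 and 340 CPM at E21 and at 1098 and 1036 CPM at E28 (1.76 ± 0.32 on the log2 scale, edgeR adjusted p = 0.0163).

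FBLN5, which encodes an elastic fibre protein, stood at 6.05 and 6.06 CPM at E21 and at 47.2 and 70.1 CPM at E28 in muscle-negative members. COL6A1, a chain of type VI collagen, stood at 102 and 67.5 CPM at E21 and at 336 and 251 CPM at E28. Over all members, where 1.71% of all genes rose and 1.62% fell, 5 of the 24 matrix genes rose (3 without E28-DZ) and 1 (TGFBI) fell, 1 of 14 collagens rose (COL6A1), and 1 of 19 processing genes rose (P4HA3, a collagen prolyl hydroxylase).

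Mesenchyme regulators moved in both directions. In muscle-negative members 5 of 45 tested rose (MEOX2, EN1, EBF2, EBF3 and DKK2), where 1.97% of all genes rose. Another 5 fell, HAND2, PAX1, TBX3 and PITX1 among them, where 1.11% of all genes fell. EBF3, an early B-cell factor of dermal and axial mesenchyme, stood at 46.3 and 49.2 CPM at E21 and at 128 and 213 CPM at E28. HAND2, a factor of lateral mesoderm, stood at 10.8 and 14.8 CPM at E21 and at 0 in both E28 libraries. With E21-ZZ or E21-DZ left out no gene of this list rose in muscle-negative members, and HAND2 and TBX3 still fell. Over all members 4 of 46 tested rose, ZEB2, SIX2 and EYA2 among them, where 1.71% of all genes rose. Another 6 fell, HAND2, PAX1 and TBX3 among them, where 1.62% of all genes fell. ZEB2, a zinc-finger repressor of mesenchymal cells, stood at 28.3 and 31.3 CPM at E21 and at 58.8 and 116 CPM at E28, and at 22.9 and 42.7 CPM at E28 in muscle-negative members, where it did not pass (edgeR adjusted p = 0.334).

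Growth factor and retinoid genes moved in both directions. In muscle-negative members PTN, PDGFRA and FGF18 rose and HGF fell out of 21 tested growth factor genes, where 1.97% of all genes rose and 1.11% fell, and PDGFRA alone passed without E21-ZZ or without E21-DZ. PDGFRA, the platelet-derived growth factor receptor of mesenchyme, stood at 47.3 and 58.6 CPM at E21 and 156 and 163 CPM at E28. Of the retinoic acid genes, ALDH1A1 and ALDH1A3 rose in muscle-negative members, and the synthase ALDH1A2 fell in both versions, from 24.2 and 22.3 CPM to 5.01 and 7.62 CPM in muscle-negative members. CXCL12, a chemokine that guides migrating cells, fell in both versions, by 1.77 ± 0.22 on the log2 scale in muscle-negative members (edgeR adjusted p = 0.00302).

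Of 20 tested replication and mitosis genes, PCNA, MCM7, CENPF and BIRC5 fell in muscle-negative members, where 1.11% of all genes fell, and none passed over all members. None of the 20 was called in muscle-negative members without E21-ZZ, without E21-DZ or without E28-DZ. PCNA, the replication clamp, stood at 213 and 226 CPM at E21 and at 144 and 120 CPM at E28 in muscle-negative members. None of 63 tested ribosomal protein genes and none of 12 tested immediate-early genes passed in either version, but 6 immediate-early genes rose in muscle-negative members without E28-ZZ. Of 28 tested HOX genes, HOXC8 and HOXC10 rose in muscle-negative members (1.97% of all genes), but HOXC10 stood at 36.5 CPM in E28-ZZ and 0 in E28-DZ, which is no higher than at E21. Over all members no HOX gene rose and HOXA2, HOXB8, HOXB5 and HOXA3 fell (1.62% of all genes), with a median log2 fold change of -0.79. Muscle-negative members without E28-DZ gave 4 that rose and 6 that fell of 29, and those without E21-ZZ gave none.

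Between breeds, with the stage as a block, edgeR called 0 of 11696 genes (0%), with 519 at an unadjusted p under 0.05. It called 8 with no filter on low counts and 4 after thinning, and DESeq2 called 3. The 3 DESeq2 calls were GPX1, AQP3 and a gene without a symbol, and they are named after their values were seen. GPX1, a glutathione peroxidase, was lower in DZ at every stage, at 639 against 315 CPM at E16, 390 against 245 at E18, 242 against 170 at E21 and 334 against 207 at E28 for ZZ and DZ (-0.70 ± 0.11 on the log2 scale, edgeR adjusted p = 0.553).

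AQP3, a water and glycerol channel, was higher in DZ at E16 (68.2 against 10.1 CPM) and E18 (210 against 72.1 CPM). At E21 and E28 it lay at 0.863 CPM or less in every library (edgeR adjusted p = 0.399 over all stages). AQP3 RNA was thus found almost wholly in the early members.

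LUM+ OGN- and LUM+ OGN+ cells were set side by side within each library as a description, since the rule itself separates them. Over the 7 libraries with at least 20 cells of both kinds, MYL1, CDH15 and MYF5 were among the 10 genes whose log2 ratio of CPM + 1 was furthest above 0 in every library, together with PLP2 and CDKN1C, while RAI14 lay furthest below 0 in every library, at -0.051 in the library nearest to 0. For MYL1, a muscle myosin light chain, the ratio was lowest in E21-DZ (0.84), and in E18-DZ it stood at 12.6 CPM against 0 in 32 LUM+ OGN+ cells. In E16-ZZ, MYF5 stood at 0.267 and CDH15 at 2.67 CPM against 0, so their early ratios rest on few UMIs.

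In the 4 later libraries, APOA1 and C1QTNF3, which encode secreted proteins of lipid transport and of the C1q/TNF family, led the genes higher without OGN, followed by the muscle genes MYMK, ACTC1, TNNI1, MYL1, TNNT1 and NEB. C1QTNF3 stood at 209, 132, 256 and 347 CPM in LUM+ OGN- cells and at 90.8, 57.7, 81.5 and 73.9 CPM in LUM+ OGN+ cells of the same libraries. NIBAN1, MEOX2, MEST, COL2A1, GAS2, FN1, FIBIN, CHODL, LRIG3 and TNC were lower without OGN. FN1, the matrix glycoprotein fibronectin, stood at 209, 206, 230 and 163 CPM without OGN and at 410, 378, 655 and 836 CPM with it.

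**Figure D5:**
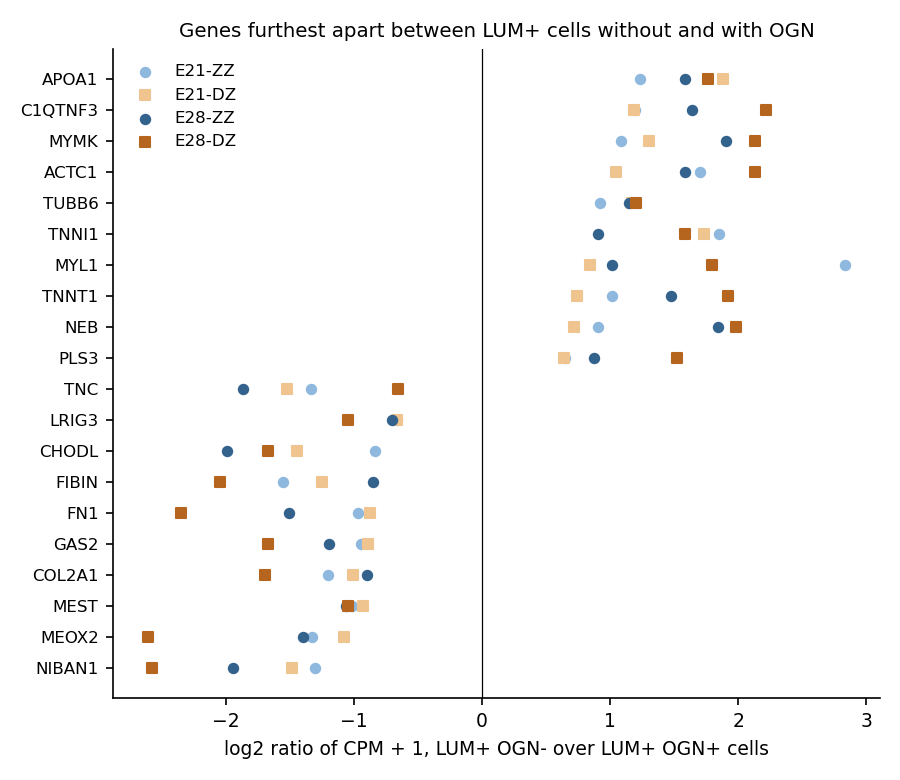
Log2 ratio of CPM + 1 in LUM+ OGN- over LUM+ OGN+ cells (x axis) for the 10 genes furthest above and the 10 furthest below 0 in every E21 and E28 library (y axis), 1 point per library. All points of APOA1 to PLS3 lie above 0.6 and all points of TNC to NIBAN1 below -0.6, and the ratio of NIBAN1 reaches -2.57 in E28-DZ.

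Against ZIC4+ cells with COL1A2, another set of mesenchyme cells with at least 20 cells in 6 libraries, the homeobox gene PITX1 was higher in LUM+ OGN- cells and ZIC2 and ALCAM lower in each library. PITX1 stood at 87.2 and 106 CPM in LUM+ OGN- cells at E18, at 33.8 and 40.0 CPM at E21 and at 38.0 and 33.0 CPM at E28, against 2.70 to 14.9 CPM in ZIC4+ cells. ZIC2 stood at 10.4 to 31.5 CPM in LUM+ OGN- cells and at 97.0 to 267 CPM in ZIC4+ cells. Against TNMD+ cells with COL1A2 in the 4 later libraries, the muscle genes MYMK, VGLL2, PAX7 and ACTC1 were furthest above 0, at 1.48, 1.47, 1.41 and 1.28 in the library nearest to 0, and COL9A1, ACTG2 and ALCAM furthest below.

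Against cells without LUM that otherwise met the rule, in all 8 libraries, DCN, COL3A1 and COL1A1 were higher in LUM+ OGN- cells, and the muscle contractile genes MYH7, ACTC1, TNNI1, MYH3 and TNNT2 lower. The mean log2 ratio over libraries was 2.62 ± 1.12 (SD, n = 8) for DCN and -2.35 ± 0.93 (SD, n = 8) for MYH7. LUM+ OGN- cells thus held more RNA of the named muscle genes than LUM+ OGN+ cells in the later libraries. They held less RNA of these contractile genes than LUM-negative cells. The paper reports ACTC1 in cardiomyocytes too, so skeletal and cardiac RNA were not separated here. In E28-DZ, 161 of 795 members and 153 of 850 LUM-negative cells had no UMI of the 6 skeletal muscle genes.

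The stage change differed between LUM+ OGN- and LUM+ OGN+ cells for 59 of 11815 genes (0.499%) by the edgeR interaction term, with 8 sums from 4 libraries. OGN defined both sets, and the share of LUM+ cells without OGN differed by stage (76.8% and 78.1% at E21, 36.7% and 29.2% at E28). A stage change within the cells and a shift in which cells lacked OGN therefore cannot be told apart. The stage change was more positive without OGN for 23 genes (0.195%), led by RXRG, MSC, LFNG, VGLL3 and FITM1. It was more negative for 36 (0.305%), led by CLDN11, EBF1, COL14A1, BMP7 and DMRT2. COL14A1, a fibril-associated collagen, stood at 13.3, 14.7, 19.8 and 17.6 CPM without OGN and at 9.25, 14.5, 64.3 and 128 CPM with it at E21 and E28 (-2.42 ± 0.41 on the log2 scale, edgeR adjusted p = 0.0423). In muscle-negative members 3 of these 10 genes still passed, CLDN11, EBF1 and COL14A1. MSC stood at -0.28 ± 1.00 on the log2 scale (edgeR adjusted p = 0.997), so its direction there is not settled. RXRG stood at 2.16 (edgeR adjusted p = 0.286) and FITM1 at 1.35 (edgeR adjusted p = 0.863) there, without passing. Leaving out either E21 library gave 0 calls, with 1056 genes without E21-ZZ and 1039 without E21-DZ at an unadjusted p under 0.05.

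Cells with an EN1 UMI were compared with the other members at a fixed depth of 2000 UMIs per cell, as a description. There were 34, 29, 264 and 101 such cells at E21 and E28 and none at E16 or E18. DKK2 was seen in 14.7%, 17.2%, 29.2% and 24.8% of them and in 11.5%, 9.55%, 26.0% and 14.2% of the other members. PRRX1 was seen in 38.2% against 23.1% in E21-ZZ (13 of 34 cells with EN1), but in 24.1% against 27.1% in E21-DZ, 28.0% against 29.1% in E28-ZZ and 13.9% against 14.4% in E28-DZ, so that it was not more frequent with EN1 in 3 of the 4 libraries.

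ID2, a target of BMP signalling, and EFEMP1, a fibulin of the matrix, were higher with EN1 in each of the 4 libraries, and NR2F2, a nuclear receptor of ventral and vascular mesenchyme, and POSTN, which encodes periostin, were lower. ID2 stood at 279, 759, 746 and 599 CPM with EN1 and at 208, 428, 497 and 388 CPM without. NR2F2 stood at 44.1, 34.5, 58.7 and 34.7 CPM with EN1 and at 177, 119, 88.7 and 121 CPM without, where the values with EN1 rest on 3, 2, 31 and 7 UMIs. In muscle-negative members CXCL12 was the gene furthest below 0, at 69.0, 55.6, 45.7 and 51.3 CPM with EN1 and 471, 343, 135 and 130 CPM without, and the values with EN1 rest on 4, 3, 19 and 4 UMIs.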

How the data were processed

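Per the labels, the files hold UMI counts per gene and barcode for 8 libraries (10x 3′ v3 chemistry), made by the authors with Cell Ranger (version 3.1.0 for the E16 libraries and 3.0.2 for the others) on Sscrofa11.1; the deposited counts are raw whole numbers. No cell annotation was used here. Genes were matched by symbol, and 680 of 6455 identifiers without one were named from a reference table. Members and gene lists were chosen with earlier results of these data known, and lists are given by counts with no test. UMIs were summed over member cells of a library, and sums of at least 20 cells were fitted with edgeR (4.0.16; TMM, filterByExpr, glmQLFit, adjusted p under 0.05), with the 7 rule genes left out of the calls. CPM uses TMM library sizes, except in the EN1 split. SEs were derived from the fold change and its F statistic. DESeq2 (1.42.0, in R 4.3.3) served as an alternative. Scrublet in scanpy (1.11.5) scored barcodes, and those with the highest scores, 0.8% per 1000 barcodes, were treated as doublets. These barcodes were kept in the main fit. Ratios between cell sets were log2 of CPM + 1.

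Genes named for the stage were the 10 highest and 10 lowest fold changes among called genes with a mean of at least 20 CPM in the E21 and E28 libraries and no overlap between the stages; comparisons of cell sets used a mean of 50 CPM, and Ensembl-only names were skipped. Scripts were tested on simulated counts with known changes. Of changes of 1 on the log2 scale, 37.1% were recovered for the stage, 72.6% for the breed and 45.3% for the interaction. False calls made up 6.98%, 5.20% and 12.8% of the calls. Thinned values used 2000 UMIs per cell. Depth limits precision, and deposited counts carry free RNA. Some genes are not reported here.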

Additional observations from a re-analysis of the deposited data

Results flagged for a closer look

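A library far from the others of its group was found in 3 of 80 groups of 4 libraries tested. For a group drawn from 1 distribution, chance alone flags about 1 in 20. Groups here pooled E16 with E18 or E21 with E28, and most genes were chosen by their E21 and E28 values. That rate is therefore only a rough guide. DKK2 in LUM+ OGN- cells stood at 213 CPM in E28-ZZ, away from the other later libraries at 48.0 to 67.7 CPM. PID1 stood at 44.8 CPM in E28-ZZ, against 5.32 to 8.00 CPM in the others. MYOD1 stood at 0.267 CPM in E16-ZZ and at 0 in the other early libraries. In muscle-negative members the 2 E28 libraries stood closer for DKK2 (356 and 318 CPM) and at 75.1 and 25.9 CPM for PID1.

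The change from E21 to E28 differed between LUM+ OGN- and LUM+ OGN+ cells by the edgeR interaction term (adjusted p under 0.05) for 10 named genes. On the log2 scale the difference was 2.49 for RXRG, 2.19 for MSC, 2.01 for LFNG, 1.96 for VGLL3 and 1.88 for FITM1, and it was -2.76 for CLDN11, -2.67 for EBF1, -2.42 for COL14A1, -2.40 for BMP7 and -2.21 for DMRT2. The share of LUM+ OGN- cells with a muscle UMI moved with the first 5, and its part in them was not tested. OGN defined both cell sets and split the LUM+ cells differently by stage, and its part was not tested either.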

How the results depend on the processing

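The number of genes called between E21 and E28 (390) was 1225 with no filter on low counts, 230 with a mitochondrial limit of 5%, 198 after thinning to 2000 UMIs and 162 with the E21 and E28 libraries alone, and it ranged from 51 (without E21-DZ) to 896 (without E28-ZZ) when 1 library was left out, with 113 without E21-ZZ; in muscle-negative members (350) it was 111 without E21-ZZ and 79 without E21-DZ. Between breeds (0) it was 3 by DESeq2, 8 with no filter and 4 after thinning, and 0 to 6 with 1 library left out. For the interaction of stage and OGN (59) it was 912 with no filter, 95 with the 5% limit, 9 after thinning, 112 with COL1A2 of at least 1 UMI and 36 in muscle-negative members, and 0 to 1858 (without E28-ZZ) with 1 library left out, with 539 without E28-DZ. The share difference between late and early libraries, 2.99 percentage points, ranged from 1.65 to 5.58 with 1 library left out, was 0.71 with the 5% limit and 12.7 with OGN not used, and was -0.039 in muscle-negative members (exact permutation p = 1). The cause of these moves was not tested.

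Of the values of named genes under all alternatives, 752 kept direction and call, 150 lost the call, 32 gained it and 6 turned direction: KRT14 after thinning (0.064), LFNG in muscle-negative members without E21-DZ (-0.47) and without E28-DZ (-0.20), NRK in muscle-negative members without E28-DZ (-0.0064), and for the interaction MSC in muscle-negative members (-0.28) and VGLL3 after thinning (-3.44). With 2 libraries per stage, 1 sow each, a gene that was not called may still differ. The muscle-negative members of E28-DZ were 161 cells, so their CPM is the least precise, and the muscle-negative and LUM of at least 3 UMIs versions were chosen after seeing the data. The labels give no replicate numbers that pair libraries. The breed as a block gave 341 stage calls, and the breed test, paired by its stage block, gave 0 edgeR calls without that block too (72 genes at an unadjusted p under 0.05).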
